A study of Homo sapiens with 16 samples.

Results

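The comparison described here is of H69 cells carrying a short hairpin RNA (shRNA) against EIF6 with H69 cells carrying a control shRNA, in cytoplasmic RNA. It rests on 4 of the 16 libraries of the study: 2 labelled sheIF6 and 2 labelled shNTC, taken by their labels. H69 is an established line of small cell lung cancer (SCLC), a tumour of neuroendocrine character, and the labels give the genotype as eIF6 knockdown for the sheIF6 libraries and WT for the shNTC libraries, with the treatment normal for all 4. Each shRNA was brought in by lentivirus to make 1 stable line, so the libraries of a group come from the same infected line, and a difference between the 2 lines of cells that is not due to EIF6 cannot be told apart from the knockdown. Whether the numbered libraries of a group are separate cultures is not in the labels, and every p-value then measures only the spread between these samples, which may be technical. Cytoplasmic RNA was taken from cells lysed in a hypotonic buffer with detergents and cycloheximide. The study holds the same groups in RNA from polysome fractions, and both fractions in H69M, a second line labelled as SCLC; these 12 libraries enter the estimate of spread, and the H69 polysomal and H69M cytoplasmic ones are used where named.

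The protein eIF6 binds the 60S ribosomal subunit on the face that meets the 40S subunit. It is needed for 60S assembly in the nucleolus and travels with the immature subunit to the cytoplasm, where SBDS and a partner GTPase release it so that the subunits can join. Free 60S subunits that carry eIF6 cannot form an 80S ribosome, and eIF6 activity is known to limit translation in growing cells.

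EIF6 RNA itself was lower in both knockdown libraries. The gene lies at chr20:35278911-35284985 on the minus strand (GRCh38, GENCODE v29; ENSG00000242372.7). Its level was 65.0 and 67.7 CPM (counts scaled to library size with TMM factors) in the sheIF6 libraries and 116 and 112 CPM in the shNTC libraries, so the groups did not overlap. The fitted level was 58.1% of the control, a log2 difference of -0.78 (SE 0.295). edgeR's quasi-likelihood test over 23100 genes gave it an adjusted p of 1, and 0.0565 when the 8 H69 libraries alone were fitted with the replicate number as a block. In polysomal RNA of the same lines EIF6 stood at 234 and 220 CPM against 424 and 389 CPM, which is 55.9% of the control.

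The 4 libraries held 41412177 to 45564335 counts. Markers of neuroendocrine cells were present in all of them: the transcription factor INSM1 was at 1145 and 1053 CPM with the knockdown and 1324 and 857 CPM in the controls, and the granule protein chromogranin A (CHGA) at 93.3, 125.8, 121.7 and 170.5 CPM in the same order. The neuronal transcription factor gene NEUROD1 was low, at 3.60, 4.67, 4.49 and 10.7 CPM. The 2 control libraries differed from each other more than most pairs of a knockdown and a control library did. Of 16815 genes with a mean of at least 0.5 CPM over the 4 libraries, 10.9% differed at least 2-fold between the controls and 4.59% between the knockdown libraries. Knockdown library 1 differed so from control libraries 1 and 2 in 7.7% and 8.02% of genes. For knockdown library 2 the shares were 11.4% and 5.19%.

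Control library 1 also held transcripts that the other 3 nearly lacked. Summed over 7 endothelial markers (PECAM1, CDH5, VWF, KDR, TEK, ERG and EMCN, leaving out CLDN5, which all 4 libraries expressed) it had 1077 counts. Scaled by total counts alone, without TMM factors, this sum was 23.6 CPM there, 1.93 and 2.67 CPM in the knockdown libraries and 3.31 CPM in control library 2. The mesenchymal filament VIM stood at 917 counts in control library 1 and at 10, 10 and 6 counts in the others, and lysozyme (LYZ) at 336 counts against 0, 9 and 0. For 48 genes that are high in H69M and nearly absent from the polysomal H69 libraries, control library 1 had a median of 0.284% of the H69M level and the other 3 had a median of 0, with a count for 38 of the 48 in control library 1 and for 16 to 20 in the others. VIM is also high in H69M. Of the other H69M genes checked, AXL had 45 counts in control library 1, 0 in control library 2 and 0 and 8 in the knockdown libraries. In the same order REST had 4, 0, 2 and 0 counts and YAP1 24, 0, 30 and 26. KRT17, F2RL2, COL5A3 and PRRX1 were at 0 counts in all 4 libraries. The part of these transcripts in the results was not tested. Values in each control library, or differences from each control alone, therefore stand beside the results below.

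Over all genes, the number of genes called depended on the fit. The median log2 difference was -0.02 over the 16815 genes. TMM scaling centres most genes near 0, so this median cannot show the size of a general change. edgeR's quasi-likelihood test with Benjamini-Hochberg adjustment over the 23100 genes called 0 genes (0%) at 0.05. Without adjustment, 469 genes (2.03%) had a p under 0.05 with a lower level and 227 (0.983%) with a higher one. DESeq2 called 60 lower genes (0.26% of the 23100) and 17 higher genes (0.0736%) in the same libraries, and limma-voom called 0. DESeq2 gave no adjusted p for 3583 of the 23100 genes. Libraries with the same replicate number deviated together in every pair of H69 groups, so fits with the number as a block are given beside the others. With the block in both lines and all 16 libraries, edgeR called 1 gene (0.00433%), WLS. With the block in the 8 H69 libraries alone, where the 4 polysomal libraries share in the estimates of the replicate effect and of the spread, it called 39 lower genes (0.189% of 20585 tested) and 23 higher genes (0.112%). In every one of these 62 genes both knockdown libraries lay beyond both controls, where 19% of the 16815 genes lay below without overlap and 17.5% above. The 62 were called from these same libraries, so this is not separate support.

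Against control library 1 alone, 638 of the 16815 genes were at least 2-fold lower in the knockdown (mean of 2 libraries) and 776 at least 2-fold higher. Against control library 2 alone the counts were 510 and 408. In all, 177 genes were 2-fold lower and 114 were 2-fold higher against both, while 86 were 2-fold apart in opposite directions. A narrower set had no overlap between the groups, a 2-fold difference from each control and a mean of at least 100 counts in the higher group: 101 lower genes (0.601% of the 16815) and 61 higher genes (0.363%). In 82 of those 101 lower genes control library 1 was the higher control, and it was the higher one in 28 of the 61 higher genes.

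**Figure D1:**
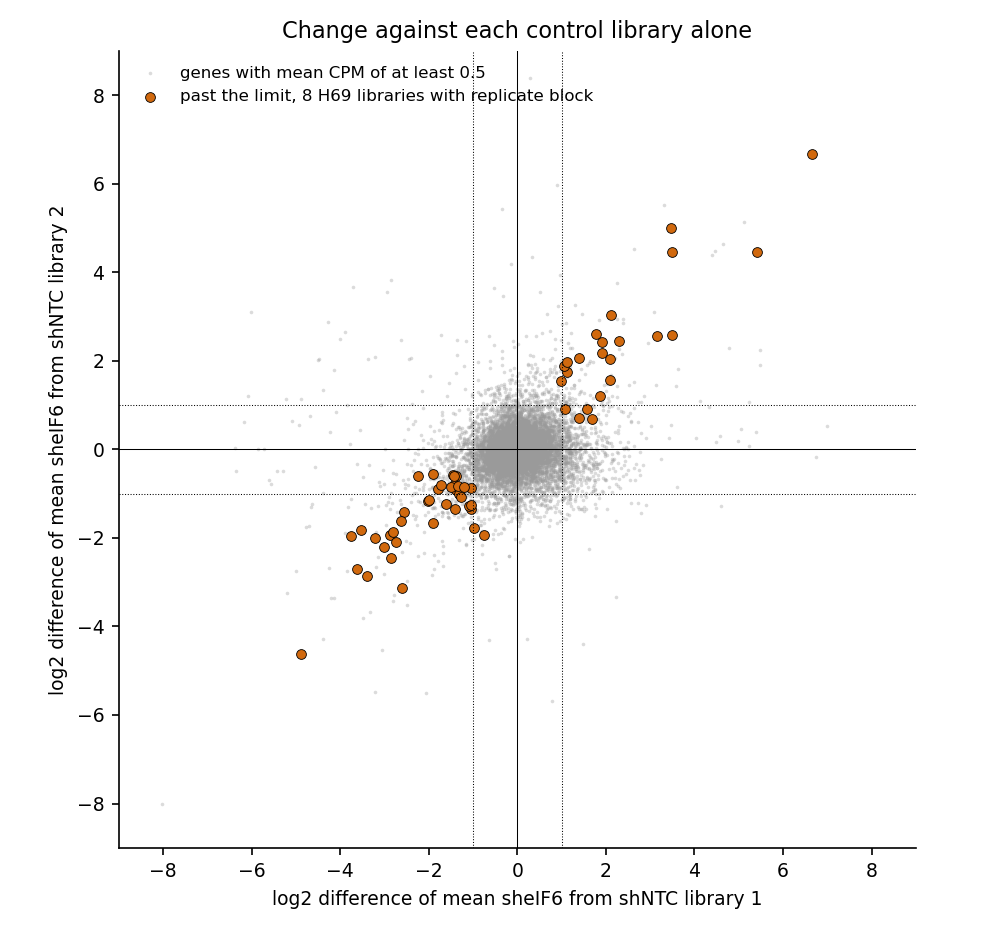
Each point is a gene; the axes give the log2 difference of the mean of the 2 sheIF6 libraries from shNTC library 1 (horizontal) and from shNTC library 2 (vertical), with dotted lines at a 2-fold difference. The 62 genes called by the blocked fit of the 8 H69 libraries (orange) lie below 0 on both axes (39) or above 0 on both (23), and 24 of the 39 and 18 of the 23 are past both dotted lines, while 86 of the 16815 grey genes are 2-fold apart in opposite directions.

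The genes with lower RNA in the knockdown included a Ras activator, a carrier of Wnt ligands, growth factor and neuropeptide genes, and matrix genes. The 12 named by a rule are those with the smallest unadjusted p in that narrower set. RASGRP1, at chr15:38488103-38565575, encodes an exchange factor that loads Ras with GTP when diacylglycerol is present. Its level was 12.5 and 9.78 CPM in the knockdown and 81.2 and 42.1 CPM in the controls, a log2 difference of -2.47 (SE 0.465). Both knockdown libraries were far below the lower control. Its adjusted p was 0.380 in edgeR's fit of all libraries, 0.0555 with the block in both lines and 0.00443 in the blocked fit of the 8 H69 libraries.

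WLS, at chr1:68098473-68233120, encodes the membrane protein that carries Wnt ligands to the cell surface. It stood at 6.96 and 5.03 CPM against 55.2 and 23.8 CPM, a log2 difference of -2.72 (SE 0.515). The difference was -3.21 from control library 1 and -2.00 from control library 2. Its edgeR adjusted p was 0.380, and 0.00257 with the block in both lines. In polysomal RNA it stood at 16.5 and 6.87 CPM against 110 and 42.3 CPM (edgeR adjusted p with the block 0.00164).

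The growth factor NRG1, a ligand of ERBB receptors, was at 0.865 and 0.938 CPM against 5.95 and 2.96 CPM. The neuropeptide gene ADCYAP1, which encodes PACAP, was at 4.94 and 7.56 CPM against 40.7 and 16.5 CPM. In both, control library 1 was about 2-fold or more above control library 2, and both controls were above both knockdown libraries. HMCN1, which encodes the matrix protein hemicentin-1, had the smallest unadjusted p of all named genes (1.07e-05, edgeR adjusted p 0.175), at 0.329 and 0.489 CPM against 3.44 and 2.06 CPM. HMCN1 was the 1 gene that passed in polysomal RNA without the block, and it passed there with the block too (edgeR adjusted p 0.0106).

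The other lower genes of the rule were SRPX, INPP4B, which encodes a phosphatase of phosphoinositides, HOXA13, a homeobox gene, MYO5A, a motor of organelle transport, DUSP5, a phosphatase of ERK, AIM1 and BEND6. Their log2 differences ran from -2.70 (HOXA13) to -1.18 (MYO5A). MYO5A was the closest to the 2-fold limit, with 10.8 and 10.6 CPM against 26.7 and 21.6 CPM. In all 12, control library 1 was the higher control. The blocked fit of the 8 H69 libraries called 4 of the 12 (RASGRP1, WLS, MYO5A and AIM1) and DESeq2 called all 12. In polysomal RNA, 11 of the 12 were lower without overlap, BEND6 being the exception, where 11.7% of all 16815 genes were. The 2 fractions may come from the same cultures.

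**Figure D2:**
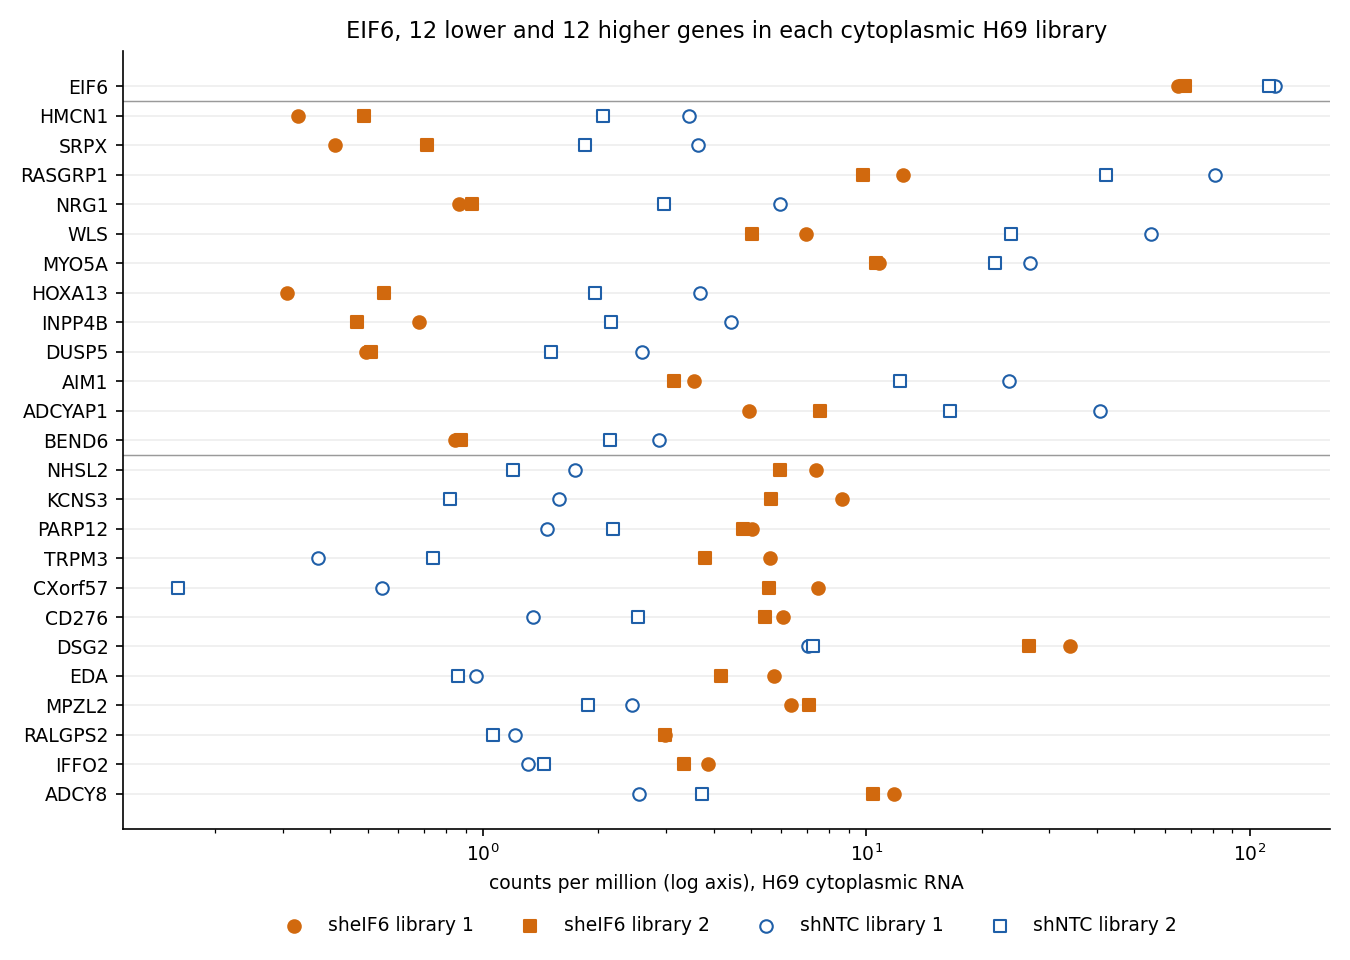
CPM on a log axis for EIF6 (top), the 12 lower genes and the 12 higher genes of the rule, in the 2 sheIF6 libraries (filled) and the 2 shNTC libraries (open) of H69 cytoplasmic RNA; circles are library 1 and squares library 2. No knockdown point overlaps a control point, as the rule requires, and control library 1 lies to the right of control library 2 in all 12 lower genes.

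The higher genes included a desmosomal cadherin, ion channels, and signalling genes. DSG2, at chr18:31498043-31549008, encodes a desmosomal cadherin that holds epithelial cells together. Its level was 34.0 and 26.5 CPM in the knockdown and 7.03 and 7.26 CPM in the controls, a log2 difference of 2.08 (SE 0.531). The controls were almost equal, so the difference was 2.09 from one and 2.04 from the other. The edgeR adjusted p was 0.631 over all libraries and 0.0485 in the blocked fit of the 8 H69 libraries.

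KCNS3, at chr2:17877847-18361616, encodes a modulatory subunit of voltage-gated potassium channels. It stood at 8.62 and 5.65 CPM against 1.58 and 0.820 CPM, a log2 difference of 2.57 (SE 0.496; edgeR adjusted p 0.380, and 0.0350 in the blocked fit of the 8 H69 libraries). TRPM3, a cation channel gene, stood at 5.60 and 3.79 CPM against 0.371 and 0.740 CPM. CXorf57 had the largest difference of the 12, from 0.547 and 0.160 CPM in the controls to 7.49 and 5.58 CPM (log2 4.20, SE 0.807). Each of these 3 genes was at least 4-fold above each control.

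ADCY8, an adenylyl cyclase stimulated by calcium, was at 11.8 and 10.4 CPM against 2.56 and 3.72 CPM. EDA, the ligand ectodysplasin, was at 5.72 and 4.18 CPM against 0.956 and 0.860 CPM. The other higher genes were NHSL2, the interferon-inducible PARP12, the immune checkpoint gene CD276 (B7-H3), the adhesion gene MPZL2, RALGPS2, an exchange factor for Ral, and IFFO2, with log2 differences from 1.39 to 2.18. The blocked fit of the 8 H69 libraries called 7 of the 12 (NHSL2, KCNS3, TRPM3, CXorf57, DSG2, EDA and ADCY8), and DESeq2 called 10. All 12 were higher without overlap in polysomal RNA too, where 11.4% of all 16815 genes were. The 2 fractions may come from the same cultures.

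Further genes that passed in the blocked fit of the 8 H69 libraries are described next. They were chosen after their values were seen. edgeR's fits of all 16 libraries, with or without the block, called none of them. With the block there, the edgeR adjusted p was 0.410 for PPP1R17 and 0.179 for WFDC2. Without it, edgeR's unadjusted p was 0.441 for GDF15 and 0.269 for COL2A1. The blocked fit of the 8 H69 libraries leaves 3 residual degrees of freedom. PPP1R17, which encodes an inhibitor of protein phosphatases, had the smallest adjusted p of that fit and fell to 2.90 and 1.65 CPM from 23.5 and 16.1 CPM, a log2 difference of -3.14 (SE 0.202; edgeR adjusted p 0.000152). The orphan nuclear receptor gene RORB fell to 2.35 and 1.30 CPM from 22.1 and 11.6 CPM, and the sodium-calcium exchanger gene SLC8A2 to 11.1 and 6.68 CPM from 51.1 and 23.2 CPM. The G1 kinase gene CDK6 fell to 39.3 and 38.6 CPM from 110 and 70.8 CPM. GDF15, a cytokine gene induced by stress, fell to 9.80 and 11.2 CPM from 21.6 and 26.8 CPM, and there control library 2 was the higher one. GALNT14, a glycosyltransferase gene, fell to 1.09 and 1.06 CPM from 12.9 and 3.94 CPM (edgeR adjusted p 0.0218 in that fit).

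Among those that rose, WFDC2, which encodes the secreted epithelial protein HE4, went to 9.53 and 11.0 CPM from 1.11 and 1.70 CPM, a log2 difference of 2.89 (SE 0.271; edgeR adjusted p 0.00261 in that fit). BACE2, an aspartyl protease gene, rose to 56.8 and 43.6 CPM from 25.0 and 17.1 CPM, and COL2A1, the type II collagen gene, to 566 and 477 CPM from 246 and 276 CPM. The opioid precursor gene PENK, the estrogen sulfotransferase gene SULT1E1 and USP18, which encodes the protease that removes ISG15, also rose. DESeq2 called 18 of the 62 genes.

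Genes induced by ERK signalling lay lower in the knockdown as a group. The list and its members were chosen with earlier results of these data known. The counts below therefore describe the list and are not separate support. ERK is the last kinase of the Ras pathway, and the list holds phosphatases and Sprouty proteins that feed back on it, ETS factors and early response genes. Of 19 members with at least 0.5 CPM, all 19 had a negative fitted log2 difference, 12 were lower without overlap and 0 higher, where 19% of all 16815 genes were lower without overlap and 17.5% higher. The median log2 difference was -1.45, beside -0.02 for all genes. At an unadjusted p under 0.05, 9 of the 19 were lower, beside 1.61% of all 16815 genes (higher: 0 of 19, beside 0.684%). No member passed the adjusted limit in edgeR's fit of all libraries, with or without the block, or in the blocked fit of the 8 H69 libraries.

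Both controls gave a lower median, by unequal amounts: -1.64 against control library 1 and -0.78 against control library 2. Of the 19, 15 were below control library 2 and 4 were above it. The members were also higher in control library 1 than in control library 2, by a median of 0.91 on the log2 scale. Control library 1 is also the library with the endothelial (23.6 against 3.31 CPM by total counts), VIM (917 against 6 counts) and LYZ (336 against 0 counts) transcripts, and their part in the change of this list was not tested. SPRY4, a feedback inhibitor of receptor signalling, stood at 2.28 and 2.79 CPM in the knockdown and at 36.1 and 6.26 CPM in the controls. DUSP6, the cytoplasmic ERK phosphatase, stood at 2.90 and 2.32 CPM against 16.6 and 5.76 CPM. In both genes control library 1 was far above control library 2, which was itself above both knockdown libraries.

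DUSP5, the nuclear ERK phosphatase, was at 0.494 and 0.510 CPM against 2.60 and 1.50 CPM, and SPRY2 at 0.535 and 0.489 CPM against 2.28 and 1.20 CPM. MYC was at 2.41 and 2.18 CPM against 7.24 and 5.28 CPM, a log2 difference of -1.45 (SE 0.448; edgeR adjusted p 0.859). The early response gene EGR1 was at 2.16 and 4.73 CPM against 13.4 and 7.18 CPM. ETV4, CCND1, FOS, PHLDA1, DUSP4 and EPHA2 were also lower without overlap, while in SPRED2, SPRY1 and ETV1 both knockdown libraries lay between the controls. In polysomal RNA the list had a median of -1.40, with 14 of 19 lower and 0 higher without overlap, where 11.7% and 11.4% of all 16815 genes were.

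**Figure D3:**
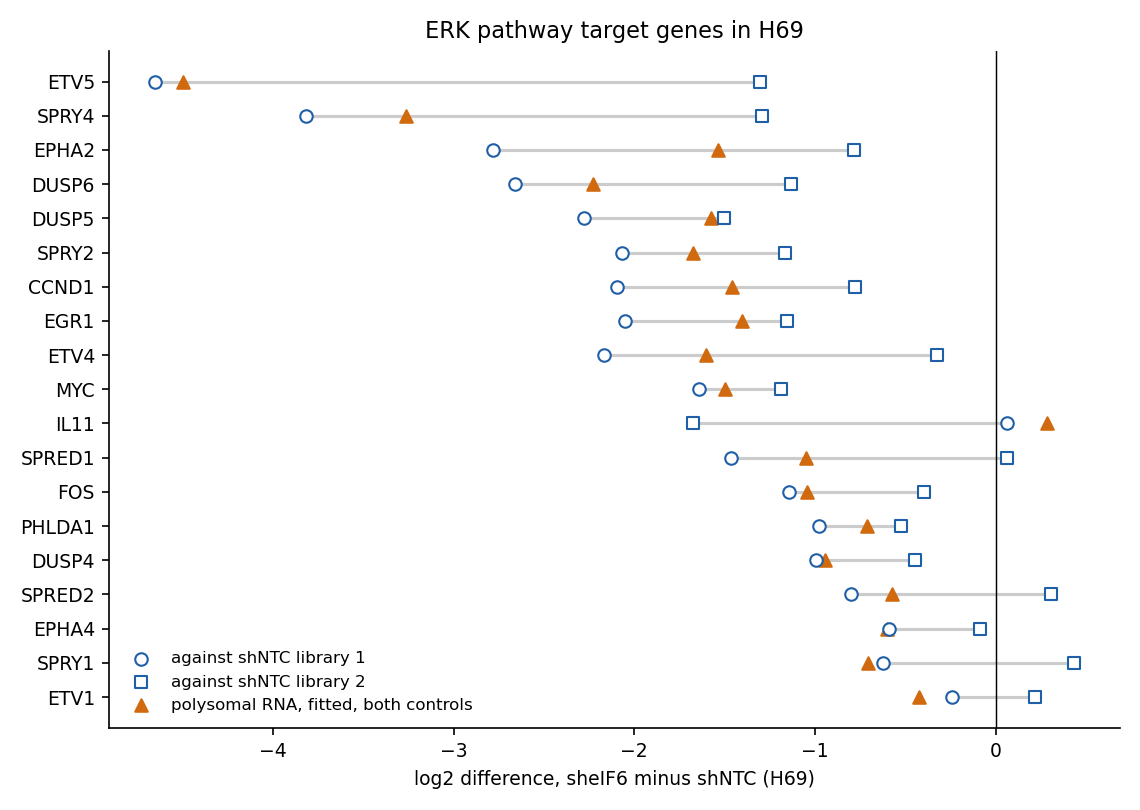
Log2 difference of the mean of the 2 sheIF6 libraries from shNTC library 1 (open circles) and from shNTC library 2 (open squares) in cytoplasmic RNA for the 19 ERK target genes, ordered by fitted difference, with the fitted difference in polysomal RNA (triangles). All but 4 squares lie left of 0, and the circles lie further left than the squares in all genes but IL11.

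The promoters of EGR1 and SPRY4 are shown because they hold letters of motifs that factors downstream of growth signalling bind; these genes and the motifs were chosen after values were seen. The bases are the 150 before the gene start, 5′ to 3′ on the gene's strand, from RefSeq (GRCh38.p14), at chr5:138465329-138465478 (plus strand) for EGR1 and chr5:142324248-142324397 (minus strand) for SPRY4, with motif matches in capitals.
EGR1: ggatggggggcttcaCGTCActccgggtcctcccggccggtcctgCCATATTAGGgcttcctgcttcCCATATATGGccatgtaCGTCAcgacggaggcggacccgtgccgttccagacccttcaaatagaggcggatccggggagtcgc
SPRY4: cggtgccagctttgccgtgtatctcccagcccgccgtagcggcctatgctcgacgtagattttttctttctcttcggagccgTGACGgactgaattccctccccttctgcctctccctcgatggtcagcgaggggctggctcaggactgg
The motifs searched on both strands in the 250 bases before each gene start were the ETS core CCGGAA, the AP-1 site TGANTCA, the CRE TGACGTCA, its shorter core TGACG, which the CRE contains and which reads CGTCA on the other strand, and the CArG box of the serum response element. Of the 21 ERK genes, 13 are in the promoter table. The core TGACG was in 7 of the 13 and in 21.2% of all 35116 starts, the ETS core in 4 and in 14.5%, and the CArG box in EGR1 alone, where 2 matches stand in capitals, and in 1.16% of all starts. The AP-1 site (6.57% of starts) and the full CRE (1.65%) were in 1 member each. A gene with several starts was counted once if any start matched, and a match is a run of letters, not a measured site.

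Other parts of the Ras and receptor pathway varied. Of 29 receptors and pathway members, 10 were lower without overlap and 5 higher, where 19% and 17.5% of all genes were. The median log2 difference was -0.24, with -0.23 against control library 1 and -0.04 against control library 2. The receptor gene RET was at 1.48 and 1.61 CPM against 3.51 and 6.96 CPM, with the higher value in control library 2. FGFR2 was at 0.967 and 0.245 CPM against 1.70 and 1.48 CPM. KIT, IGF1R, FGFR3 and ERBB3 were higher without overlap, each by less than 1 on the log2 scale.

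Genes of the machinery on which eIF6 acts differed by small amounts. The list of 22 genes of 60S maturation had a median log2 difference of 0.03 (-0.02 and 0.05 against the 2 controls). Of the 22, 5 were lower and 9 higher without overlap, where 19% and 17.5% of all genes were. The differences ran from -0.78 in EIF6 itself to 0.24. SBDS, which releases eIF6, was at 62.4 and 69.2 CPM in the knockdown and 67.7 and 73.9 CPM in the controls, overlapping. NMD3, the export adaptor of the 60S subunit, was at 38.8 and 39.8 CPM against 51.5 and 46.8 CPM, and the GTPase gene LSG1 at 124 and 114 CPM against 102 and 105 CPM. None of the 22 passed the adjusted limit in edgeR's fits.

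Most ribosomal protein genes lay slightly higher in the fit. Of 47 large-subunit genes, 45 had a positive log2 difference and 33 were higher without overlap, where 17.5% of all genes were, with a median of 0.17. The median was 0.15 against control library 1 and 0.19 against control library 2. Of 32 small-subunit genes, 27 had a positive difference and 18 were higher without overlap, with a median of 0.14 (0.09 and 0.19 against the 2 controls). Of these 32, 21 were above and 11 below control library 1, while 31 were above and 1 below control library 2. The lowest fitted difference in that list was -1.81. RPL29 had the largest difference of the large-subunit genes, 224 and 294 CPM against 177 and 190 CPM (log2 0.49, SE 0.306), and RPL5 was at 286 and 299 CPM against 257 and 261 CPM. None passed the adjusted limit, and these genes share sequence with many pseudogenes, so reads can be split between copies. In polysomal RNA the large-subunit median was 0.10, with 4 of 47 higher without overlap. The small-subunit median there was 0.095, with 1 of 32 higher without overlap. Of all 16815 genes 11.4% were higher without overlap on polysomes, so neither list stood above that share.

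The 13 protein-coding genes of the mitochondrial genome were all higher in the fit, with a median of 0.28 (0.17 and 0.28 against the 2 controls) and 8 of 13 higher without overlap, where 17.5% of all genes were. Their sum was 41438 and 47902 CPM in the knockdown and 41439 and 35343 CPM in the controls, so library 1 of each group was level. On polysomes their median was 0.45, with 0 of 13 higher without overlap, where 11.4% of all genes were. MT-ND2 was at 2403 and 2530 CPM against 2103 and 1591 CPM (log2 0.42, SE 0.580), and the SE exceeded the difference in that gene. Mitochondrial transcripts made up 4.85% and 5.66% of the counts in the knockdown libraries and 4.66% and 4.27% in the controls. Translation factors (45 genes) had a median of -0.01, with -0.05 and 0.05 against the 2 controls, and 7 were lower and 7 higher without overlap. Ribosome assembly genes (36) had a median of 0.01, with -0.03 and 0.03 against the 2 controls, and 8 were lower and 7 higher. For both lists, 19% and 17.5% of all genes are the shares to set beside these counts.

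Genes of the integrated stress response, which ATF4 drives when initiation of translation is restrained, lay slightly lower. Of 24 members, 12 were lower without overlap and 0 higher, where 19% and 17.5% of all genes were. The median was -0.15, and both controls gave nearly the same value (-0.18 and -0.16). TRIB3 was at 8.995 and 7.85 CPM against 13.6 and 13.7 CPM, and CEBPB at 8.44 and 9.95 CPM against 15.3 and 13.8 CPM. None of the 24 passed the adjusted limit.

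Neuroendocrine genes lay near the median of all genes. Of 43 genes, 12 were lower and 7 higher without overlap, where 19% and 17.5% of all genes were, and the median was -0.11 (-0.16 and -0.08 against the 2 controls). NKX2-1, the lung lineage factor, was at 8.27 and 10.5 CPM against 20.3 and 15.7 CPM (log2 -0.94, SE 0.401; edgeR adjusted p 1), and the vesicle gene SYT11 at 27.9 and 29.9 CPM against 46.9 and 46.3 CPM. The synaptic vesicle gene SYP was nearly level, at 99.1 and 102 CPM against 99.2 and 108 CPM.

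Lists for non-neuroendocrine and mesenchymal genes depended on which control was used. The non-neuroendocrine list (22 genes) had a median of -0.81 against control library 1 and 0.18 against control library 2, the mesenchymal list (21 genes) -0.77 and 0.13, the matrix list (26 genes) -0.49 and 0.07, and the YAP target list (17 genes) -0.53 and 0.03. In some members control library 1 was far above the other 3 libraries: CAV1, which encodes the coat protein of caveolae, was at 5.99 CPM there, 0.160 CPM in control library 2 and 0.144 and 0.0408 CPM in the knockdown. Control library 1 is also the library with the endothelial, VIM and lysozyme counts given above. The part of those transcripts in these medians was not tested. Without overlap, 6 non-neuroendocrine, 6 mesenchymal and 4 matrix genes were lower, and 1, 1 and 0 higher, where 19% and 17.5% of all genes were. Among the lower ones, CDH2, or N-cadherin, was at 17.9 and 27.3 CPM against 65.5 and 44.5 CPM, the matrix gene TNC at 106 and 90.3 CPM against 184 and 116 CPM, and the laminin gene LAMA4 at 2.39 and 0.978 CPM against 7.28 and 2.90 CPM.

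Epithelial genes were mixed. Of 28 members, 17 had a positive and 11 a negative fitted difference, and 8 were higher and 1 lower without overlap, where 17.5% and 19% of all genes were. The median was 0.14 (0.45 and 0.14 against the 2 controls). The cadherin gene CDH1 was at 2.74 and 6.83 CPM against 3.03 and 7.86 CPM, CD24 at 358 and 529 CPM against 419 and 593 CPM, and the keratin gene KRT8 at 288 and 278 CPM against 302 and 276 CPM, all overlapping. Beside DSG2, the desmosome gene PKP2 was at 6.85 and 5.42 CPM against 2.62 and 2.30 CPM. The epithelial splicing factor gene ESRP2 was at 6.38 and 6.87 CPM against 2.28 and 3.94 CPM, the keratin gene KRT19 at 48.0 and 57.5 CPM against 19.3 and 32.5 CPM, and the transcription factor gene ELF3 at 60.5 and 84.2 CPM against 21.0 and 50.6 CPM. Control library 1 was the lower control in ESRP2, KRT19 and ELF3 and the higher one in PKP2. All 4 genes were higher without overlap in polysomal RNA, where 11.4% of all genes were. In these epithelial genes DSG2 alone passed, in the blocked fit of the 8 H69 libraries.

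**Figure D4:**
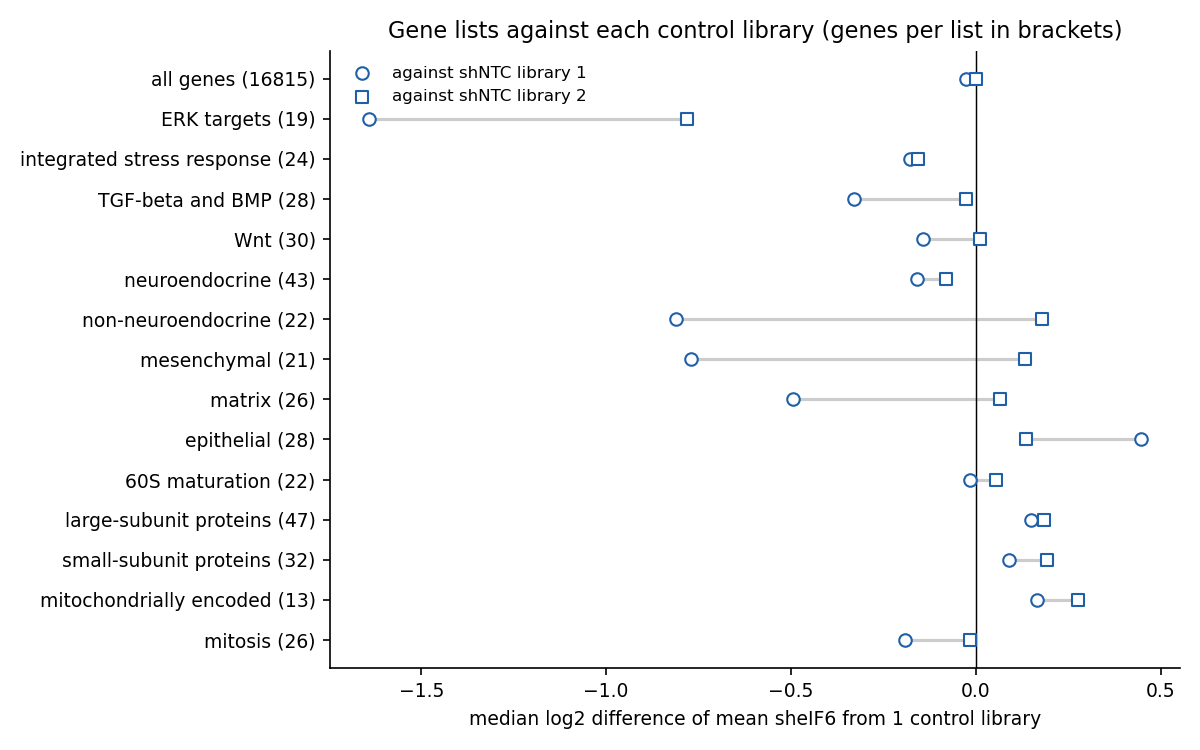
Median log2 difference of the mean of the 2 sheIF6 libraries from shNTC library 1 (circles) and from shNTC library 2 (squares) for all 16815 genes and 14 gene lists, with the number of genes in brackets. ERK targets lie left of 0 with both controls (-1.64 and -0.78), while the non-neuroendocrine, mesenchymal and matrix lists lie left of 0 with control library 1 and right of it with control library 2.

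Of 30 Wnt genes, 8 were lower and 5 higher without overlap, where 19% and 17.5% of all genes were. Their median was -0.16, with -0.14 against control library 1 and 0.01 against control library 2. WLS and the receptor gene FZD7 fell in the blocked fit of the 8 H69 libraries. FZD7 was at 23.6 and 13.0 CPM against 65.9 and 25.8 CPM (edgeR adjusted p 0.0471 in that fit), so knockdown library 1 was close to control library 2. The ligand gene WNT11 was at 12.8 and 10.3 CPM against 6.05 and 4.92 CPM and the feedback gene NKD1 at 9.16 and 7.93 CPM against 3.47 and 3.22 CPM. The stem cell receptor gene LGR5 was at 22.1 and 19.7 CPM against 7.69 and 13.5 CPM, so members of this pathway lay on both sides.

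Of 28 TGF-beta and BMP genes, 9 were lower and 1 higher without overlap, where 19% and 17.5% of all genes were, with a median of -0.23 (-0.33 and -0.03 against the 2 controls). The receptor gene BMPR1B was at 0.720 and 0.510 CPM against 4.63 and 3.54 CPM and passed in the blocked fit of the 8 H69 libraries (log2 -2.72, SE 0.427; edgeR adjusted p 0.0350). The co-receptor gene TGFBR3 was at 3.44 and 2.53 CPM against 11.2 and 6.62 CPM and the activin subunit gene INHBA at 7.97 and 10.3 CPM against 27.3 and 18.3 CPM. Of 26 mitosis genes, 8 were lower and 1 higher without overlap, with a median of -0.11 (-0.19 and -0.02 against the 2 controls). Of 30 replication genes, 9 were lower and 8 higher, with a median of -0.04 against either control and in the fit. The same shares of all genes, 19% and 17.5%, stand beside these counts, and none of these genes passed. Of 15 NF-kappaB and inflammatory genes, 2 were lower and 6 higher without overlap, where 19% and 17.5% of all genes were. Their median was 0.21, with 0.23 and 0.22 against the 2 controls.

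Polysomal RNA gave the same contrast in 4 other libraries of the same 2 lines. Of the 101 lower genes of the narrower set, 78 (77.2%) were lower without overlap on polysomes, and of the 61 higher genes 50 (82%) were higher, where 11.7% and 11.4% of all genes were. In the opposite direction without overlap lay 1 and 4. The libraries of the 2 fractions may come from the same cultures, so this is not a count over new cultures. edgeR with the block called 25 genes (0.108%) in polysomal RNA, among them WLS, RASGRP1, INPP4B, AIM1, KCNS3, CXorf57, the laminin gene LAMA4 and the desmosome gene PKP2, and 1 without it, HMCN1.

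Of the 62 genes called in cytoplasmic RNA by the blocked fit of the 8 H69 libraries, 36 of 39 lower and all 23 higher genes had the same direction without overlap on polysomes, where 11.7% and 11.4% of all genes were lower and higher. That fit uses the same 4 polysomal libraries for its replicate effect and spread, so the polysomal values are not independent of the choice of these genes. The 3 others were FZD7, PPT2 and ZNF320. ZNF320, a zinc finger gene, was at 8.11 and 3.99 CPM against 34.96 and 50.6 CPM in cytoplasmic RNA and at 28.5 and 37.4 CPM against 1.53 and 1.63 CPM in polysomal RNA, so its groups were apart in opposite directions. PPT2 was at 0.0206 and 0.0204 CPM against 1.83 and 1.52 CPM in cytoplasmic RNA and overlapped on polysomes; it shares exons with a read-through gene, and its counts are uncertain.

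**Figure D5:**
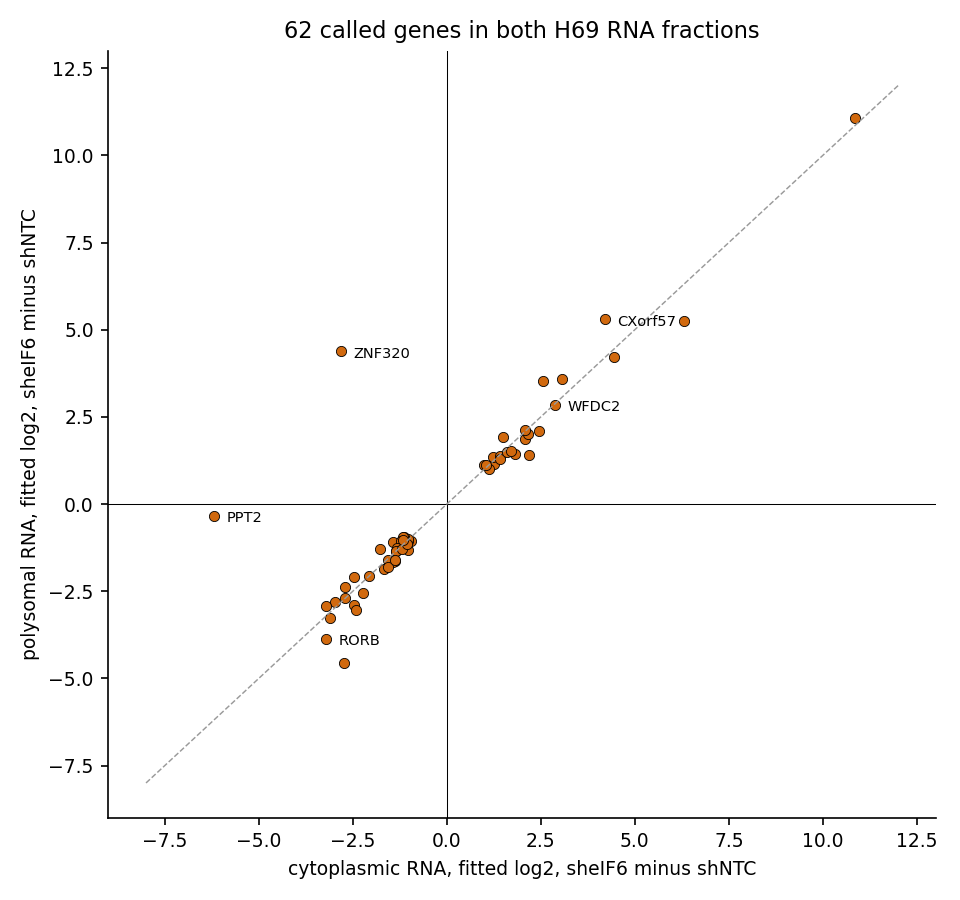
Fitted log2 difference, sheIF6 minus shNTC, in cytoplasmic RNA (horizontal) and polysomal RNA (vertical) of H69 for the 62 genes called in cytoplasmic RNA by the blocked fit of the 8 H69 libraries; the dashed line marks equal values. All but ZNF320 have the same sign in both fractions, and PPT2 lies near 0 on the polysomal axis; the fitted values of genes with no count in a control depend on the prior count.

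In cytoplasmic RNA of H69M, with the same shRNAs, 60 of the 101 lower genes (59.4%) had a negative fitted difference. Of the 61 higher genes, 38 (62.3%) had a positive one. The median fitted difference of the 16815 genes in H69M was 0. Genes without counts in H69M, such as CXorf57, have a fitted difference of 0 and count on neither side. An even split is therefore not an exact share to set beside these. In H69M, 25 of the lower genes (24.8%) and 17 of the higher genes (27.9%) lay apart without overlap in the same direction. The share of all genes that did so is not reported here. A test of the difference between the lines called 7 genes (0.0303%) in edgeR's fit of all libraries. NHSL2 was 1 of the 7: in H69 it was higher in the knockdown (7.37 and 5.95 CPM against 1.74 and 1.20 CPM) and in H69M lower (3.39 and 4.88 CPM against 10.2 and 9.36 CPM). IFFO2 was at 3.85 and 3.34 CPM against 1.31 and 1.44 CPM in H69 and at 0.918 and 1.53 CPM against 8.12 and 6.196 CPM in H69M. In both genes the groups lay apart in opposite directions in the 2 lines, with edgeR adjusted p of 0.037 each for the difference.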

How the data were processed

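RNA was sequenced from 16 libraries. The authors deposited raw counts for 56832 gene names, made with STAR and HTSeq on GRCh38 (hg38), per the submitters' processing notes, which give no versions; the strand setting is not given in the sources used here, so overlapping antisense genes cannot be told apart. Gene positions come from GENCODE v29 by unique name (29502 names matched).

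The gene members and lists were chosen with earlier results of these data known. The test was edgeR 4.0.16 under R 4.3.3 (quasi-likelihood, robust, TMM, filterByExpr with a minimum count of 10, 23100 genes), 1 mean for each of 8 groups and 8 residual degrees of freedom. The limit was a Benjamini-Hochberg adjusted p of 0.05. SE is the log2 difference divided by the square root of F. CPM are TMM-scaled; differences from 1 control are of log2 CPM with 2 as the prior count. DESeq2 1.42.0 and limma 3.58.1 (voom) were alternatives. The test was tried on simulated counts of known change.

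Named genes are EIF6, genes past the limit with or without the block, up to 12 in each direction by smallest unadjusted p (no overlap, 2-fold against each control, a mean of 100 counts in the higher group, protein-coding-like names), and up to 4 members of each list by mean CPM; other genes, also list members, were chosen after their values were seen. The name filter first left out names ending in P and a digit (RASGRP1, DUSP5, PARP12, ADCYAP1); this was corrected after values were seen. Lists count genes with a mean of at least 0.5 CPM.

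The labels do not say that replicate numbers pair libraries. Deviations of same-numbered H69 libraries from their group means correlated in all 6 pairs of groups (r 0.263 to 0.433, across genes, which are not independent replicates), so blocked values stand beside results. Libraries held 41412177 to 45564335 counts, and 2 libraries a group limit the precision. No sample of the contrast was left out. Some genes of the lists are not reported here.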

Additional observations from a re-analysis of the deposited data

Results flagged for a closer look

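For 7 genes named in the text or by the test itself, the knockdown change in H69 differed from that in H69M in cytoplasmic RNA, by edgeR's test of that difference (adjusted p 0.037 each). The change in H69 minus that in H69M, on the log2 scale, was 3.42 for NHSL2, 3.93 for IFFO2, 6.06 for GATA6, 2.13 for CDCP1, -1.88 for CADM4, -3.96 for NSG1 and -5.57 for FRZB. The endodermal transcription factor gene GATA6 stood at 1.58 and 2.32 CPM in the knockdown and 0.156 and 0 CPM in the controls of H69, and at 12.1 and 14.6 CPM against 38.9 and 35.4 CPM in H69M. FRZB, a secreted Wnt antagonist gene, stood at 5.15 and 4.22 CPM against 19.1 and 10.6 CPM in H69 and at 78.7 and 99.6 CPM against 3.02 and 8.89 CPM in H69M. GATA6, CDCP1, CADM4, NSG1 and FRZB were chosen after their values were seen. A control library of H69 has no GATA6 count, so its fitted value depends on the prior count.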

How the results depend on the processing

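The count of genes called in cytoplasmic RNA was 0 as reported (469 lower and 227 higher genes at an unadjusted p under 0.05) and also 0 with RLE scaling, total library size, a stricter filter, limma-voom, the 4 or the 8 H69 libraries alone, without mitochondrial and ribosomal RNA genes, with a test against a log2 change of 1, and without genes at least 5 times higher in H69M (added after seeing the data). It was 2 with no low-count filter, 77 with DESeq2, 1 when each line had a replicate block and 62 with the 8 H69 libraries alone and the replicate block. Leaving out 1 library gave 0 to 38: 38 without control library 2 (36 lower), 4 without control library 1 (all higher), 0 without either knockdown library; the remaining control is then assumed to vary like the other groups. Of the 36 genes lower against control library 1 alone, 13 were also 2-fold below control library 2. With the replicate block, added after seeing the data for these counts, polysomal calls went from 1 to 25 and calls of the difference between lines from 7 to 32. The 101 lower and 61 higher genes that moved against each control became 258 and 173 with a 1.5-fold limit. Leaving out 1 library, also added later, gave 119 to 383 lower genes and 71 to 405 higher genes. EIF6 stayed between -0.81 and -0.75 over all settings. Leaving out 1 library turned signs in NSG1 (-0.65 to 0.084) and VIM (-6.43 to 0.76), each positive without control library 1, and in INSM1 (-0.27 to 0.36, with -0.27 without control library 2 and -0.05 without knockdown library 1). Medians of 14 of 38 lists moved by more than their spread without control library 1, of 3 without control library 2, of 4 without knockdown library 1 and of 2 without knockdown library 2. Medians of 2 lists moved under each blocked fit, and 3 of 36 without genes at least 5 times higher in H69M. The causes were not tested.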
